A study of Mus musculus with 4 samples.

Results

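Expression in the colon of Adamts12-deficient (KO) mice was compared between 1 mouse given 2% dextran sodium sulfate (DSS) in the drinking water and 1 untreated mouse, with 1 Affymetrix array each. These were 2 of the 4 arrays of the study, chosen by their titles, and the other 2 were of an untreated and a DSS-treated wild-type (WT) mouse. All 4 samples were labelled distal colon. Treatment began at an age of 8 to 10 weeks. The series' design text states 7 days of DSS, the treatment protocol 8 days, and both name 1 more day without DSS before the tissue was taken. The labels name no strain and do not say which part of Adamts12 was removed. With 1 mouse a side there is no replicate check on any difference, so no test was made, and the counts and medians given here describe these arrays.

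Adamts12 is a secreted metalloprotease of the ADAMTS family, whose members cleave proteoglycans and other matrix proteins outside the cell. DSS damages the lining of the colon, so that gut bacteria reach the tissue beneath and draw in neutrophils and other leukocytes. Repair then brings crypt cell division, matrix turnover by fibroblasts and a loss of mature epithelial functions.

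The values were the authors' deposited log2 values, and a difference is the KO DSS array minus the untreated KO array on that scale, where 1 is 2-fold. A probe set was used where it lay above the median of its array on at least 1 of the 4 arrays, and a gene was read from its brightest such probe set, which gave 12189 genes. Of these, 149 passed only through the KO DSS array and so were almost bound to be higher there, and 264 passed only through the untreated KO array. Background was set at 1.39, the maximum over 9 probe sets of Y-linked genes (Xist was bright on all 4 arrays). Where one array of a pair lay at or under that limit, the difference of a gene is given as a bound. List medians use the measured values, and of the KO medians only that of the neutrophil chemokines differed with such members at their bound. Among list members counted as higher in KO, Cxcl3, Ccl3, Clec4d, Clec4e, Trem1, Mmp8, Il6, Tnfaip6, Lcn2, Msln, Chil1, Fcrla, Cpa3, Gfap, Scg5 and Egr2 passed only through the KO DSS array. Among those counted as lower, Osr2, Slc10a2, Slc51a, Ugt2b5, Ugt2b36, Cyp4b1, Hsd3b2, Acaa1b, Alox15, Reg3a and Nts passed only through the untreated KO array. The direction of these genes was nearly set by the filter. In bulk tissue, fewer cells of a type and less RNA per cell cannot be told apart.

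The labels were checked on the targeted gene and on markers of the tissue. The brighter Adamts12 probe set read 1.42 (untreated) and 1.41 (DSS) in KO, against 2.18 on both WT arrays. The other one lay between 0.71 and 0.97 on the 4 arrays, so Adamts12 was dim throughout and checks the genotype weakly. Markers of the distal colon and rectum went against the label of the untreated KO array. Hoxb13, a homeobox gene of the hindmost gut, read 2.48 there, and 9.47, 7.84 and 8.40 on the untreated WT, WT DSS and KO DSS arrays. Across 13 distal markers that were kept of 17 listed, the untreated KO array lay below the untreated WT array with a median difference of -3.74. Across 16 kept of 26 listed markers of the proximal colon and small intestine it lay above, at 3.825. Of these 16, 4 passed the filter only through the untreated KO array and so were nearly bound to be higher there. On the KO DSS array the distal markers were present. The comparison of the KO arrays therefore sets samples apart in both treatment and position markers, and these cannot be told apart by the KO pair alone. For this reason many genes are given here with the untreated WT array beside them. Some are given by KO values alone, and such a difference does not separate treatment from position markers. A gene is called beyond both untreated arrays where the KO DSS array was at least 2-fold above the brighter, or below the dimmer, of the 2 untreated arrays.

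Between the KO arrays, 1312 genes (10.8% of those compared) were at least 2-fold higher with DSS and 814 (6.68%) at least 2-fold lower. The median difference over all genes was 0.06, with quartiles of -0.36 and 0.52. At least 4-fold apart were 236 genes higher and 189 lower, and at least 16-fold apart 33 and 25. The same counts in WT were 709 higher (5.82%) and 605 lower (4.96%). Of the genes higher in KO, 302 were also higher in WT, which is 23% of the KO genes and 42.6% of the WT genes, and of those lower in KO, 161 were lower in WT (19.8% and 26.6%). Another 98 genes were higher in KO and lower in WT, and 41 were lower in KO and higher in WT. Whether the DSS difference itself varied with genotype was not tested, since the 4 arrays leave no degree of freedom for it.

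**Figure D1:**
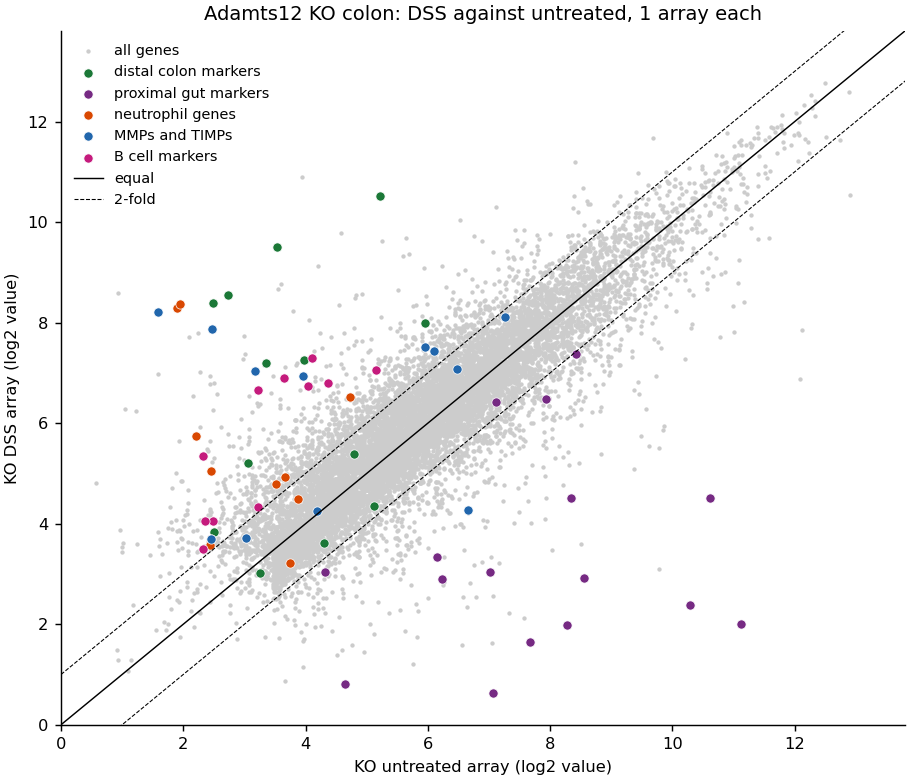
Log2 values of the 12189 genes on the untreated KO array (x axis) and the KO DSS array (y axis), with the line of equal values (solid), the 2-fold lines (dashed) and the members of 5 gene lists coloured. Neutrophil genes, matrix metalloproteases, B cell markers and distal colon markers lie mostly above the upper dashed line, and proximal gut markers lie below the line of equal values.

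Set against the untreated WT array in place of the untreated KO array, the KO DSS array was at least 2-fold higher for 748 genes (6.14%) and lower for 615 (5.05%). These counts share the KO DSS array with those above and are not independent of them. Beyond both untreated arrays lay 537 genes on the high side (4.41%) and 295 on the low side (2.42%). They were 40.9% of the 1312 higher and 36.2% of the 814 lower genes. At the other end, 140 of the higher genes (10.7%) had a KO DSS value that did not exceed the untreated WT array, and 96 of the lower genes (11.8%) one that was not under it. Before any treatment, the KO array was at least 2-fold above the WT array for 418 genes (3.43%) and below it for 730 (5.99%).

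**Figure D2:**
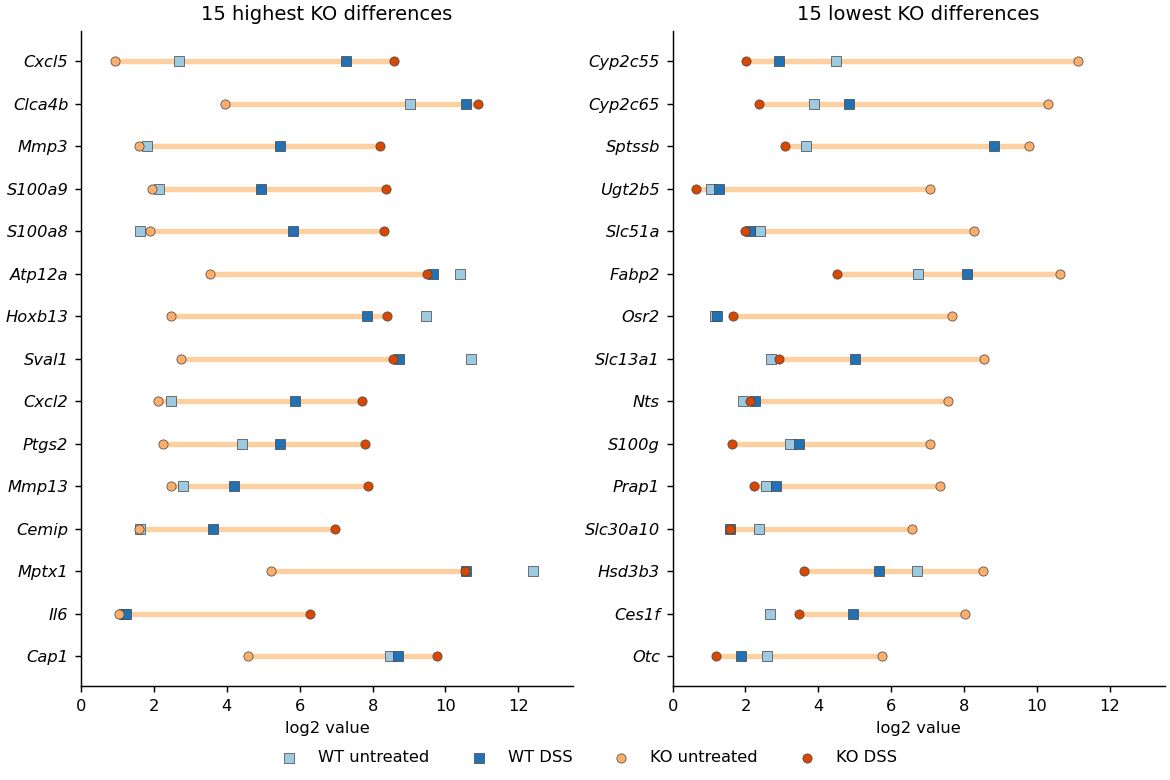
Log2 values on the 4 arrays (x axis) of the 15 named genes with the highest and the 15 with the lowest KO difference (y axis), with a bar joining the KO arrays. For Cxcl5, Mmp3, S100a8, S100a9, Cxcl2, Mmp13, Cemip and Il6 both untreated arrays lie far to the left of the KO DSS array, while for Atp12a, Hoxb13, Sval1 and Mptx1, and for most genes of the right panel, the untreated KO array lies apart from the other 3.

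The 15 genes with the highest difference included inflammatory genes and matrix proteases such as Il6 and Mmp3, which were low on both untreated arrays. They also included the distal genes Atp12a, Hoxb13, Sval1 and Mptx1, which were bright on the untreated WT array and low only on the untreated KO array. Clca4b, of the calcium-activated chloride channel regulator family, read 3.95 and 10.90 in KO and 9.02 and 10.57 in WT, so it too was low on the untreated KO array. Cap1, which binds actin and speeds filament turnover in most cells, read 4.58 untreated and 9.78 with DSS in KO, with 8.49 and 8.70 on the WT arrays. Its other kept probe set showed the same order, with 3.46 against 8.73 in KO and 7.57 and 7.81 in WT. Of the 15 lowest, 14 were at least 2-fold brighter on the untreated KO array than on each of the other arrays. The exception was Sptssb, a subunit of the enzyme that starts sphingolipid synthesis, which was also bright on the WT DSS array (8.81, against 9.78). The lowest differences were those of the cytochrome P450 genes Cyp2c55, at 11.13 and 2.01 in KO and 4.49 and 2.93 in WT, and Cyp2c65, at 10.29 and 2.38 in KO and 3.88 and 4.83 in WT. Ugt2b5, a glucuronosyltransferase gene, read 7.07 and 0.63 in KO, a difference of -5.68 or beyond, and was not above background on the WT arrays. Slc51a, of the basolateral bile acid exporter, read 8.27 and 1.99 in KO and 2.41 and 2.11 in WT, and Prap1 read 7.33 and 2.22 in KO and 2.57 and 2.84 in WT. Otc, the urea-cycle enzyme ornithine transcarbamylase, read 5.75 and then 1.20 in KO, a difference of -4.36 or beyond, and 2.58 and 1.87 in WT. Slc30a10, a manganese exporter, read 6.56 and 1.58 in KO and 2.37 and 1.58 in WT. S100g, the intestinal calcium carrier calbindin-D9k, read 7.05 and 1.63 in KO and 3.22 and 3.47 in WT.

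Another ranking took the 10 genes lowest on the KO DSS array against the dimmer untreated array. Of these, Hsd3b3, a steroid dehydrogenase gene at 8.51 and 3.60 in KO and 6.71 and 5.67 in WT, was also among the 15 lowest KO differences. Dio1, which activates thyroid hormone, read 7.03 and 3.33 in KO and 6.99 and 3.27 in WT, with nearly equal differences in the pairs. Pck1, of glucose synthesis, read 6.75 and 3.18 in KO and 7.57 and 4.68 in WT. Hpd, of tyrosine breakdown, read 7.64 and 4.45 in KO and 7.84 and 5.98 in WT. Each of these 4 was lower on the DSS array than on the untreated array in both genotypes. Elapor1, of secretory cells, read 8.22 and 4.78 in KO and 7.59 and 6.67 in WT, and the transcription elongation factor gene Tcea3 read 5.84 and 2.27 in KO and 5.10 and 3.70 in WT. The annexin gene Anxa13, of the apical membrane of epithelial cells, read 5.36 and 2.22 in KO and 6.96 and 4.54 in WT.

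The CXC chemokines that attract neutrophils were higher with DSS in KO and stood beyond both untreated arrays. Of 5 listed, 4 were kept, Cxcl3 only through the KO DSS array, and all 4 were at least 2-fold higher. With members under background at the limit, the median was 4.52 or more in KO and 2.595 or more in WT, against 0.06 and -0.01 over all genes. The measured values gave 4.925 and 3.02. Cxcl5 read 0.93 untreated and 8.60 with DSS in KO, at least 7.21 higher. Cxcl2 read 2.10 and 7.72, and Cxcl3 0.58 and 4.81, at least 3.42 higher. The 3 stayed between 0.54 and 2.70 on the untreated WT array, so both untreated colons were low. The brightest probe set of Cxcl1 gave the smallest difference of the 4, 1.32, from 5.96 to 7.28. Its other kept probe sets differed by 5.78 (2.58 to 8.36) and 3.43 (4.62 to 8.05), so the size for Cxcl1 depended on the probe set.

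Promoter sequence is shown for Cxcl2, Cxcl3 and Il6, which were low on both untreated arrays, high on the KO DSS array and held a match to the motif below. Cxcl1 is shown as the other chemokine of that list with a promoter in the table and a match. Other genes with such values, S100a8 and S100a9 among them, are not shown, so a match in every shown promoter is not a result. The windows run from 130 bases before to 20 bases after the gene start, from RefSeq on assembly GRCm38.p6, and each lies on the plus strand and is written 5′ to 3′. Capitals mark matches to GGG, 2 bases of any kind and then TTTCC, a form of the NF-kB binding motif, on either strand.
Cxcl1 (chr5:90891115-90891264): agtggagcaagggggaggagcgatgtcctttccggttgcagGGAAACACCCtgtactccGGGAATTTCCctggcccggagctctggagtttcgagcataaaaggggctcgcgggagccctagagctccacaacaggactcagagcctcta
Cxcl2 (chr5:90903769-90903918): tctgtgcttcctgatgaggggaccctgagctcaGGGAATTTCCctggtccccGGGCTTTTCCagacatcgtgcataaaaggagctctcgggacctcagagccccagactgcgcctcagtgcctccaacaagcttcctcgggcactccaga
Cxcl3 (chr5:90785971-90786120): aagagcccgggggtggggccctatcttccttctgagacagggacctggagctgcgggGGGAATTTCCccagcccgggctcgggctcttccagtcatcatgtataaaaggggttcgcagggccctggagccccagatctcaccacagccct
Il6 (chr5:30012984-30013133): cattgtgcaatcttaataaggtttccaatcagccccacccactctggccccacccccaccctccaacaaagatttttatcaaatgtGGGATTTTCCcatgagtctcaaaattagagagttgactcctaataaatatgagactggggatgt
Cxcl1 and Cxcl2 held 2 matches each, the nearest 71 and 78 bases before the start. Cxcl3 and Il6 held 1 each, 73 and 44 bases before it. Of all 32851 promoters of 300 bases in the table, 1.63% held the motif, and 0.88% held it in the shown window. Of the 5 listed chemokine genes 4 had a promoter in the table and 3 held a match, and of 12 promoters of the gp130 list, which holds Il6, 1 did. A match is a description of the letters, and binding was not measured.

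Neutrophil granule and receptor genes followed the chemokines. Of 18 listed, 12 were kept, 4 of them only through the KO DSS array, and 9 were at least 2-fold higher in KO, with 0 lower and a median of 1.275. All 9 were beyond both untreated arrays. They include the 4 that passed only through the KO DSS array, whose direction was nearly set by the filter. S100a8 read 1.89 and 8.30 on the KO arrays and 1.61 and 5.81 on the WT arrays, and S100a9 read 1.94 and 8.38 in KO and 2.15 and 4.95 in WT. These genes encode calprotectin, the main cytosolic protein of neutrophils. Clec4e, a receptor for damaged cells and fungal and mycobacterial glycolipids, read 2.21 and 5.75 in KO and 2.23 and 3.02 in WT. Fpr2, a receptor for bacterial peptides, read 4.73 and 6.53 in KO and 3.16 and 3.61 in WT. Csf3r, the receptor for granulocyte colony-stimulating factor, differed by 1.28, Il1r2, a decoy receptor for interleukin-1, by 1.27, and Trem1 by 1.14. Mmp9 (0.70) and Ltf (0.61), which encode granule proteins, were under 2-fold. In WT 3 of the 12 were at least 2-fold higher, with a median of 0.61.

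Chemokines for monocytes, T cells and eosinophils split in KO. Of 15 kept of 17 listed, 7 were at least 2-fold higher and 4 lower, with a median of 0.44 in KO and 0.04 in WT. Ccl11, which attracts eosinophils, read 4.34 and 7.13 in KO and 4.56 and 4.48 in WT. Ccl2, which attracts monocytes, read 3.55 and 5.85 in KO and 3.14 and 3.70 in WT. Ccl7, its near relative, differed by 1.51, and Ccl3, kept only through the KO DSS array, by 1.16. Cxcl10, Cxcl11 and Cxcl9, interferon-induced chemokines for T cells, were higher by 1.81, 1.13 and 1.07. These 7 were beyond both untreated arrays. On the low side, Ccl6 read 9.70 and 7.67 in KO and 10.12 and 8.63 in WT, and Ccl5, which attracts T cells, 7.11 and 5.74 in KO and 6.40 and 6.02 in WT. The lower values of Ccl12 (5.50 to 3.72) and Ccl9 (7.16 to 6.11) started from an untreated KO array that was above the untreated WT array (3.03 and 5.92). Among 7 kept homeostatic chemokines, Cxcl13, which guides B cells into follicles, read 5.97 and 8.53 in KO and 7.50 and 7.07 in WT, and Cxcl14 was higher by 1.19. Ccl25, made in the small intestine, was lower (4.79 to 3.39), and the median of that list was 0.21, or -0.24 against the untreated WT array.

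Cytokine genes that act on the epithelium and stroma stood out in KO. Of 8 kept interleukin-1 family genes of 12 listed, 6 were at least 2-fold higher and 0 lower, with a median of 1.895 (0.23 in WT), and 5 of them were beyond both untreated arrays. Il1b read 4.41 and 7.72 in KO and 4.44 and 6.07 in WT. Il33, an alarmin of stromal and epithelial nuclei, read 2.99 and 7.74 in KO and 3.93 and 5.07 in WT. The receptor gene Il1r1 was higher by 1.34 and the receptor subunit gene Il18rap by 1.16. Il18 (5.52 to 8.66) behaved otherwise: the WT arrays read 8.54 and 8.88, so the untreated KO array was the low one. Il1rn, which encodes the natural antagonist of the interleukin-1 receptor, read 5.55 and 8.00 in KO and 6.84 and 6.82 in WT.

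Genes of the gp130 pathway, through which interleukin-6, interleukin-11, oncostatin M and LIF signal to STAT3, were all above 0 among the 12 kept of 13 listed. In KO 8 of them were at least 2-fold higher, with a median of 1.445, and 6 were beyond both untreated arrays. In WT 3 were at least 2-fold higher, with a median of 0.23. Il6 was not above background on the untreated KO array or on either WT array (1.05, 1.19 and 1.24) and read 6.28 on the KO DSS array, at least 4.89 higher. Il11 read 4.14 and 7.44 in KO and 3.96 and 4.66 in WT. Both encode ligands, and receptor genes were higher on the same array. Osmr, which binds oncostatin M, read 5.07 and 7.68 in KO and 5.26 and 6.12 in WT, and Il6st, which encodes gp130, read 6.53 and 8.27 in KO and 6.96 and 7.16 in WT. Socs3, a STAT3 target that restrains the pathway, differed about equally, by 2.33 in KO and 2.51 in WT. Stat3 itself differed by 0.61 and Osm by 0.90.

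In the TNF and NF-kB feedback list, 8 of 12 kept genes were at least 2-fold higher in KO and 0 lower, with a median of 1.185 (0.065 in WT). Only 3 of the 8 were beyond both untreated arrays. Tnfaip2 read 4.06 and 8.06 in KO and 4.67 and 5.53 in WT, and its other kept probe set differed by 2.07 in KO (4.82 to 6.89). Tnfrsf1b, a TNF receptor of leukocytes, read 5.74 and 7.57 in KO and 5.63 and 7.23 in WT, and Tnfaip6, a hyaluronan-binding protein, 2.08 and 3.64 in KO and 2.26 and 2.07 in WT. The ligand gene Tnf itself differed by 1.11 (4.05 to 5.16). The feedback inhibitor genes Tnfaip3, Nfkbiz and Birc3 were higher by 1.35, 1.38 and 1.26, but the untreated WT array (7.92, 8.25 and 8.23) was close to the KO DSS array (8.16, 8.50 and 8.26). The other kept probe sets of these 3 genes were under 2-fold.

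Acute-phase genes had a median of 2.325 in KO over 10 kept of 14 listed, with 9 at least 2-fold higher, 0 lower and 7 beyond both untreated arrays. The WT median was 0.695, with 4 higher and 2 lower. Saa3, a serum amyloid made in inflamed tissue, read 6.52 and 10.04 in KO and 4.63 and 6.83 in WT. Hp (haptoglobin) read 3.21 and 6.40 in KO and 2.60 and 4.37 in WT, and Lbp, which binds bacterial lipopolysaccharide, 4.79 and 7.56 in KO and 5.57 and 6.96 in WT. Lbp was under 2-fold on its other kept probe set (0.82). Lrg1, a leucine-rich glycoprotein, differed alike in both genotypes, at 3.60 and 8.78 in KO and 3.43 and 8.65 in WT. Lcn2, which withholds iron from bacteria, read 2.28 and 5.92 in KO and only 2.64 and 3.10 in WT. Saa1 and Saa2 were higher by 1.54 and 1.26 in KO, yet their KO DSS values (10.98 and 6.56) were under those of the untreated WT array (11.34 and 6.85).

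Genes of the prostaglandin pathway went in both directions in KO, 8 above 0 and 8 below. Ptgs2, the inducible cyclooxygenase, read 2.24 and 7.80 in KO and 4.42 and 5.46 in WT, but its other kept probe set differed by only 2.33 in KO (2.04 to 4.37). The secreted phospholipase gene Pla2g2a read 4.24 and 7.79 in KO and 5.59 and 8.52 in WT, and the prostaglandin E2 receptor gene Ptger2 2.77 and 4.94 in KO and 3.57 and 3.74 in WT. Hpgd, which inactivates prostaglandins, was lower in both genotypes, at 9.73 and 6.94 in KO and 9.17 and 7.01 in WT. The cytosolic phospholipase gene Pla2g4c read 5.80 and 2.40 in KO and 8.37 and 6.43 in WT, and the lipoxygenase gene Alox15 was lower by 1.08 in KO, from 3.85 to 2.77. Over 16 kept genes, 7 were higher and 3 lower, and the median of 0.275 became -0.15 without a filter on dim probe sets. Among 9 kept genes of oxidant production, Gpx2, an epithelial glutathione peroxidase, read 9.68 and 11.68 in KO and 10.43 and 11.87 in WT. Nos2 (1.70) and Duoxa2 (1.65) were the other members past 2-fold in KO, 0 were lower, and the median was 0.81.

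**Figure D3:**
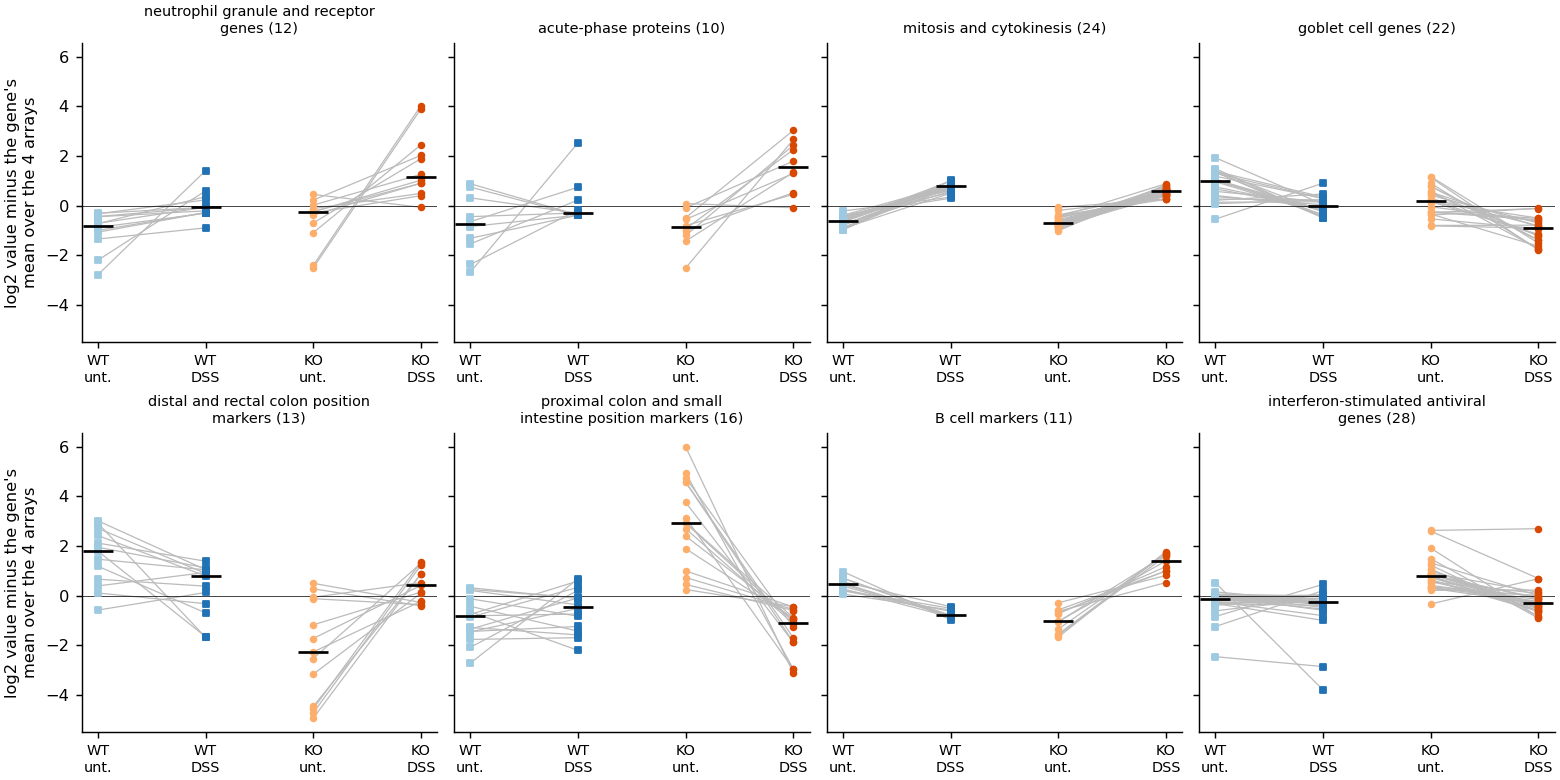
Each panel plots, for the kept members of a list (number in parentheses), the log2 value minus the mean of that gene over the 4 arrays (y axis) on the untreated and DSS arrays of each genotype (x axis), with lines joining the arrays of a genotype and black bars at the median. Neutrophil, acute-phase, mitosis and goblet cell genes have similar untreated arrays or step the same way in both genotypes, whereas position markers, B cell markers and interferon-stimulated genes have an untreated KO array apart from the untreated WT array.

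Matrix metalloproteases degrade collagen and other matrix proteins, and their tissue inhibitors (TIMPs) hold them in check. Of 12 kept of 17 listed, 7 were at least 2-fold higher in KO, 1 lower, and 6 beyond both untreated arrays, with a median of 1.29 (0.53 in WT). The stromelysin genes Mmp3 and Mmp10 read 1.58 and 8.21, and 3.18 and 7.04, on the KO arrays, with 1.80 and 5.46, and 3.11 and 4.99, on the WT arrays. The collagenase gene Mmp13 read 2.47 and 7.87 in KO and 2.81 and 4.20 in WT. These 3 were low on both untreated arrays. Inhibitor genes were higher as well. Timp1 read 3.96 and 6.94 in KO and 3.51 and 5.21 in WT, and Timp3 was higher by 1.57 in KO, with a WT difference of -0.43. Mmp14, which activates other metalloproteases at the cell surface, was higher by 1.34, and Mmp8, the neutrophil collagenase, by 1.24. The lower one, Mmp7, or matrilysin, read 6.66 and 4.28 in KO and 3.95 and 3.97 in WT, so the untreated KO array was the high one.

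The 3 metalloprotease genes with the highest differences are shown with their promoters because they were higher together and lie near each other on chromosome 9. Windows and assembly are as for the chemokines, and capitals mark TGANTCA, the AP-1 motif, on either strand.
Mmp3 (chr9:7445692-7445841): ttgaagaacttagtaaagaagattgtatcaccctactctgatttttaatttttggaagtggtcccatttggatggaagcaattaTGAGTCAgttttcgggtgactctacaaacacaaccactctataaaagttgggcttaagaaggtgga
Mmp10 (chr9:7502212-7502361): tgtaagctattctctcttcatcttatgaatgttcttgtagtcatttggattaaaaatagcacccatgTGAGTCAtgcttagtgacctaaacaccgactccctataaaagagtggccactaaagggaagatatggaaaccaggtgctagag
Mmp13 (chr9:7272384-7272533): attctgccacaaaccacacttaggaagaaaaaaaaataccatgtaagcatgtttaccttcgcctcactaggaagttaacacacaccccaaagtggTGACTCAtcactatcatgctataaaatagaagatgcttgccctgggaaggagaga
Each held 1 match, at 46, 63 and 35 bases before the start for Mmp3, Mmp10 and Mmp13. In all promoters of 300 bases the share with a match was 7.81%, and 4.20% in the shown window. Of the 17 listed metalloprotease and inhibitor genes, 14 had a promoter in the table and 5 held a match, namely Mmp3, Mmp7, Mmp10, Mmp12 and Mmp13. Mmp7, with a match, was lower in KO.

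Genes of other extracellular protease systems were higher on the same array. Plat, the tissue plasminogen activator, read 3.86 and 7.20 in KO and 4.19 and 5.22 in WT. Plaur, the receptor for urokinase, read 4.16 and 6.84 in KO and 4.79 and 6.21 in WT. F3, the tissue factor that starts clotting, read 5.38 and 7.89 in KO, but its untreated WT value was 7.13. Of 5 kept genes of that list, these 3 were at least 2-fold higher, with a median of 2.51 (-0.10 in WT). Against the untreated WT array the median was 0.76, and 2 of the 3 were beyond both untreated arrays. Among 6 kept relatives of Adamts12 of 10 listed, 4 were at least 2-fold higher and 0 lower, with a median of 1.235. Adamts16, a kept relative that was not on the list, differed by -0.57 in KO (4.41 to 3.84). Adamts1 read 3.91 and 6.67 in KO and 4.37 and 5.08 in WT, and Adamts4, an aggrecanase, 3.11 and 4.62 in KO and 1.96 and 3.89 in WT. Adamts9 was higher by 1.23 in KO and 0.90 in WT. A dimmer probe set of Adamts4 gave 4.08 and of Adamts9 3.78 in KO, so these sizes also depended on the probe set. Adamts15 went opposite ways, with 3.85 and 5.09 in KO and 5.86 and 4.35 in WT.

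Fibroblast and matrix genes were higher by smaller amounts. Of 21 kept of 23 listed, 13 were at least 2-fold higher in KO and 0 lower, with a median of 1.07 (-0.06 in WT, with 1 higher), and 6 were beyond both untreated arrays. Grem1, a stromal antagonist of bone morphogenetic proteins, read 4.54 and 8.36 in KO and 5.40 and 7.19 in WT. Pdgfrb, the receptor for platelet-derived growth factor on pericytes and fibroblasts, read 4.61 and 7.10 in KO and 5.84 and 5.72 in WT. Tnc, or tenascin C, read 6.81 and 8.73 in KO and 7.01 and 7.36 in WT. Collagen genes were nearer to 2-fold, with Col5a2 at 1.5, Col6a3 at 1.13, Col1a1 at 1.02, Col3a1 at 0.85 and Col1a2 at 0.51. In the hyaluronan list, 3 of 7 kept genes were at least 2-fold higher and the median was 0.69. Cemip, which starts hyaluronan breakdown, read 1.58 and 6.97 in KO and 1.62 and 3.63 in WT, and the proteoglycan gene Vcan 4.50 and 6.50 in KO and 4.35 and 5.01 in WT. The third was Tnfaip6.

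Stromal signals to the crypt included both agonists and antagonists. Rspo3, which amplifies Wnt signalling, read 3.25 and 6.38 in KO and 4.37 and 4.95 in WT, and Wnt5a read 3.12 and 4.91 in KO and 4.15 and 4.47 in WT. Sfrp1, a Wnt antagonist, was higher by 1.42 and Foxf1, a transcription factor of gut mesenchyme, by 1.15. Bmp2 was higher by 2.09 in KO, from 5.19 to 7.28, but the untreated WT array read 8.12. Ihh, the hedgehog ligand of mature colonocytes, was the 1 lower gene, at 6.63 and 5.0 in KO and 6.35 and 6.05 in WT. In all, 7 of 15 kept genes of 24 listed were higher, 4 of them beyond both untreated arrays, and the median was 0.55.

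Vascular adhesion genes, which let leukocytes leave the blood, were higher while general endothelial genes differed less. Of 17 kept of 19 listed, 5 were at least 2-fold higher in KO and 0 lower, with a median of 0.69 (0.03 in WT). Selp, or P-selectin, read 3.32 and 7.16 in KO and 3.24 and 4.21 in WT. Madcam1, the gut addressin, read 3.82 and 6.07 in KO and 3.91 and 4.78 in WT, Icam1 4.51 and 6.75 in KO and 4.94 and 5.25 in WT, and Vcam1 5.30 and 7.31 in KO and 5.66 and 5.83 in WT. These 4 were beyond both untreated arrays on their brightest probe sets, but the other kept probe sets of Vcam1 differed by only 0.85 and 0.74. The fifth was Lyve1, of lymphatic vessels, at 4.37 and 5.81 in KO and 5.88 and 4.84 in WT, with 0.38 on its other probe set. Endothelial identity genes such as Pecam1 (0.68), Cdh5 (0.79), Kdr (0.34) and Eng (0.08) were under 2-fold. All 17 were above 0, but 2 of them, Cdh5 among these, passed only through the KO DSS array. The direction of these 2 was nearly set by the filter.

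Growth factors and genes of the fetal-like repair state, in which regenerating gut epithelium turns on genes of the fetal gut, were higher in KO. Among 6 kept ligands of the EGF receptor, 4 were at least 2-fold higher and 0 lower, all 4 beyond both untreated arrays, with a median of 2.03 (0.925 in WT). Ereg read 4.20 and 9.12 in KO and 4.61 and 7.57 in WT. Hbegf read 4.66 and 6.97 in KO and 5.90 and 7.31 in WT, Epgn 1.80 and 4.04 in KO and 2.44 and 5.85 in WT, and Nrg1 2.44 and 4.26 in KO and 3.02 and 3.46 in WT. Epgn was thus brighter on the WT than on the KO DSS array. Of 14 kept fetal-like genes of 19 listed, 10 were at least 2-fold higher, among them Msln, which was kept only through the KO DSS array, and 0 lower. Of the 10, 8 were beyond both untreated arrays, and the median was 2.295. Their median against the untreated WT array was 1.32, and the untreated KO array lay below the untreated WT array by a median of -0.875. Anxa1, which dampens inflammation, read 8.41 and 11.19 in KO and 9.85 and 10.29 in WT. Anxa8, another annexin gene, read 3.55 and 8.68 in KO and 6.16 and 8.00 in WT. Clu (6.50 to 8.97, with 7.93 on the untreated WT array) marks revival stem cells of the damaged crypt. Anxa3 was an exception, at 6.88 and 9.62 in KO, since the untreated WT array read 9.66.

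**Figure D4:**
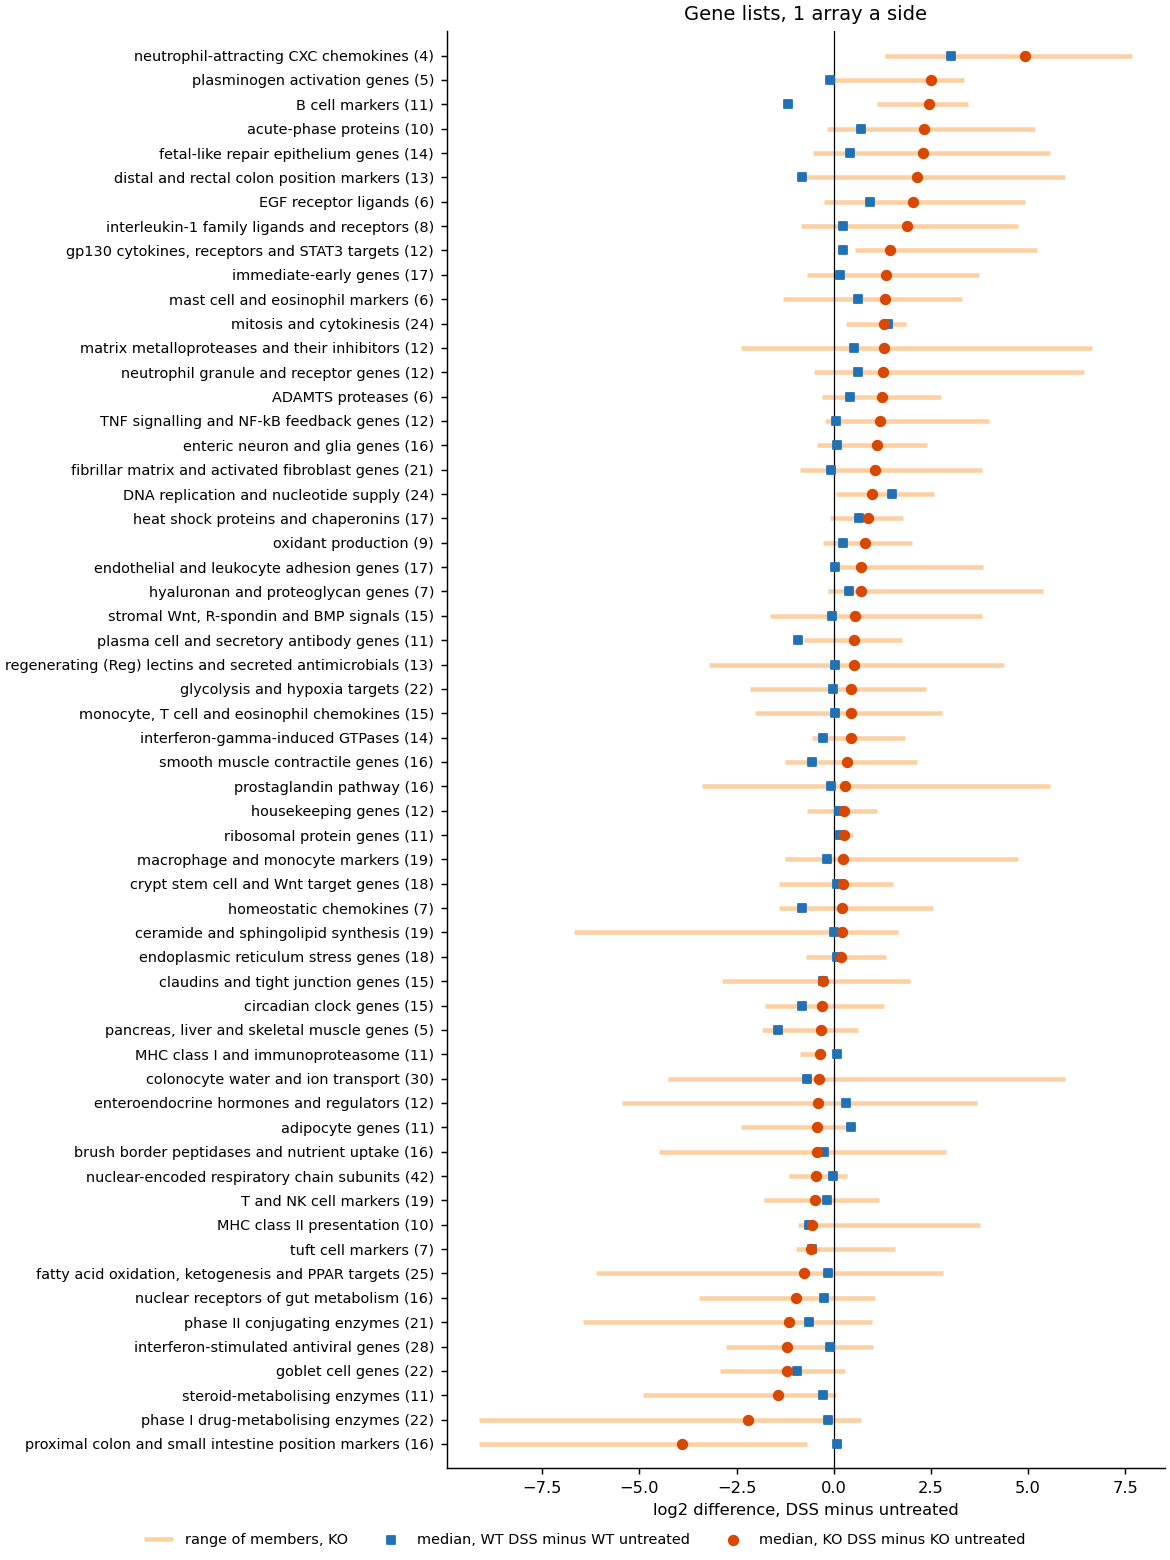
For each gene list with at least 4 kept members (number in parentheses), the median log2 difference of DSS minus untreated, from measured values, in KO (circles) and WT (squares), and the range of the members in KO (bars). Inflammatory, protease and repair lists have KO medians above the WT medians, mitosis and goblet cell medians nearly coincide, and the B cell, distal colon and proximal gut medians of the genotypes lie far apart.

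Genes of dividing cells were higher in both genotypes. All 24 kept mitosis genes were above 0 in both genotypes, and 18 in KO and 21 in WT were at least 2-fold higher, with medians of 1.29 and 1.395. In KO 15 of the 24 were beyond both untreated arrays. Anln, needed for the final split of dividing cells, read 5.37 and 7.23 in KO and 5.72 and 7.22 in WT, and the checkpoint kinase gene Bub1 4.89 and 6.47 in KO and 5.20 and 6.84 in WT. Birc5, or survivin, read 6.63 and 8.13 in KO and 6.51 and 8.44 in WT. Of 24 kept DNA replication genes, 12 in KO and 23 in WT were at least 2-fold higher and 0 lower, with medians of 0.985 and 1.485. Rrm2, which supplies deoxynucleotides, read 5.76 and 8.34 in KO and 5.86 and 8.17 in WT, and the replication licensing gene Mcm5 6.66 and 8.39 in KO and 6.59 and 8.38 in WT. The untreated arrays of the genotypes were close, with medians of KO minus WT of 0.00 for mitosis and 0.205 for replication genes. Crypt stem cell and Wnt target genes went in both directions in KO, 10 above 0 and 8 below. Lgr5 read 4.38 and 2.99 in KO and 4.43 and 3.49 in WT, Axin2 6.28 and 4.88 in KO and 5.25 and 5.58 in WT, and Ascl2 5.62 and 4.43 in KO and 4.95 and 4.91 in WT. The growth genes Myc and Ccnd1 were higher, by 1.53 and 1.21 in KO and 0.72 and 2.03 in WT. Of the 18 kept genes of that list these were the 2 at least 2-fold higher (11.1%, against 10.8% of all genes) and the 3 lower, and the median of 0.235 became -0.085 against the untreated WT array.

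Goblet cells secrete the mucus that lines the colon, and their genes lay mostly lower with DSS in KO, 19 below 0 and 3 above. All 22 listed genes were kept, 13 were at least 2-fold lower in KO and 0 higher, 11 of them beyond both untreated arrays, and the medians were -1.21 in KO and -0.955 in WT. Regulators were among the lowest. Spdef, a transcription factor of goblet cell maturation, read 7.61 and 4.93 in KO and 6.85 and 6.37 in WT. Creb3l4 read 5.72 and 2.79 in KO and 5.66 and 4.18 in WT, and Atoh1, which commits cells to the secretory lineage, 8.03 and 5.88 in KO and 8.22 and 6.90 in WT. Ern2, a stress sensor of goblet cells, read 6.80 and 4.63 in KO and 6.78 and 5.90 in WT. Several secreted products differed less: Muc2, the main mucin, by -1.12, Clca1 by -0.40, Tff3 by -0.27, Fcgbp by -0.09 and Zg16 by 0.16. The kallikrein gene Klk1 differed by -2.65, with its other kept probe sets between -2.73 and -0.06, and Agr2 by -1.73. For Clca1, Tff3, Fcgbp and Spink4 the untreated KO array was already at least 2-fold below the untreated WT array, and the 4 KO DSS values (11.11, 10.50, 10.09 and 10.08) were under all WT values.

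Secreted lectins and antimicrobial proteins of the epithelium went in both directions, with 4 of 13 kept genes higher and 5 lower in KO. The median of 0.51 became -0.59 when probe sets matching several transcripts were dropped. Slpi, an inhibitor of neutrophil elastase, read 5.25 and 9.62 in KO and 7.25 and 8.68 in WT. Ang4, an angiogenin of Paneth and goblet cells, read 9.55 and 8.52 in KO and 11.03 and 11.06 in WT, and Itln1, a lectin of goblet cells, 3.82 and 2.32 in KO and 7.30 and 3.59 in WT. Both were lowest on the KO DSS array. Reg3a read 3.98 and 1.70 in KO and 1.53 and 2.25 in WT. Like its relatives Reg3b and Reg3g it was brighter on the untreated KO than on the untreated WT array, whereas Reg4 was 12.38 on the untreated WT array and 5.98 and 8.37 on the KO arrays.

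Transport genes of colonocytes, which absorb salt and water, lay more often lower in KO, 20 below 0 and 10 above. Of 30 kept of 31 listed, 11 were at least 2-fold lower (36.7%, against 6.68% of all genes). At least 2-fold higher were 4 (13.3%, near the 10.8% of all genes). Beyond both untreated arrays were 6 of the lower and 0 of the higher, and the median was -0.37 (-0.69 in WT). Guca2a, or guanylin, which steers fluid secretion, read 12.12 and 7.85 in KO and 10.34 and 9.50 in WT. The sodium-proton exchanger gene Slc9a2 read 8.28 and 6.11 in KO and 7.14 and 6.47 in WT, and the bicarbonate transporter gene Slc4a4 7.00 and 4.89 in KO and 6.43 and 5.70 in WT. Slc5a8, a carrier of butyrate, was lower in both, at 7.71 and 6.46 in KO and 8.95 and 6.81 in WT. The 4 higher genes were Atp12a, Fxyd4, Aqp8 and Aqp4. Each of them was lower on the KO DSS array (9.50, 6.31, 7.99 and 9.31) than on the untreated WT array (10.39, 7.58, 9.69 and 9.64).

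The position markers were then read in the KO pair. Of the 13 distal markers, 9 were higher in KO by 2-fold or more and 0 beyond both untreated arrays, with a median of 2.14, which became -1.55 against the untreated WT array. The 9 include Hoxa10 (3.06 to 5.20) and Hoxa13 (2.51 to 3.83), which were not among the most extreme genes, and Insl5, a hormone of distal L cells, at 3.98 and 7.25 in KO and 9.10 and 8.27 in WT. Of the 16 proximal markers, 4 of which passed only through the untreated KO array, 15 were at least 2-fold lower and all 16 below 0, with a median of -3.90 (0.07 in WT), and 3 were beyond both untreated arrays. Hoxb6 read 7.01 and 3.04 in KO and 3.66 and 2.66 in WT. Fabp6, the ileal bile acid binding protein, read 6.15 and 3.33 in KO and 4.13 and 3.43 in WT, and the glucose carrier gene Slc5a1 8.42 and 7.37 in KO and 8.22 and 7.88 in WT. Slc10a2, the ileal bile acid carrier, was not above background on the KO DSS, untreated WT or WT DSS array and read 4.64 on the untreated KO array. Among 16 kept brush border genes, 2 were higher (12.5%, near the 10.8% of all genes) and 5 lower (31.25%, against 6.68%), with a median of -0.435. The cystine transporter genes Slc3a1 (7.06 to 2.56) and Slc7a9 (5.67 to 3.50) and the peptidase gene Mep1a (9.37 to 5.08) were lower, and the peptide and glutamate carriers Slc15a1 (1.97 to 4.85) and Slc1a1 (3.93 to 6.19) higher. Mep1a alone, with an untreated WT value of 7.38, was beyond both untreated arrays.

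Enzymes that oxidise drugs and other foreign compounds (phase I) were lower in KO. Of 22 kept of 31 listed, 16 were at least 2-fold lower and 0 higher, with a median of -2.20 (-0.15 in WT, with 4 higher and 7 lower). The untreated KO array was above the untreated WT array by a median of 1.68, but against the untreated WT array the median was still -1.18, and 10 of the 16 were beyond both. Cyp4f14 read 8.83 and 5.39 in KO and 7.27 and 6.86 in WT, Cyp2d26 6.69 and 2.83 in KO and 4.89 and 4.61 in WT, and the carboxylesterase gene Ces2a 6.39 and 4.52 in KO and 6.14 and 4.88 in WT. Cyp3a13 was lower in both, at 8.49 and 6.64 in KO and 8.30 and 6.94 in WT. By contrast Aldh1a1, which makes retinoic acid, read 9.86 and 5.94 in KO and 6.62 and 6.60 in WT.

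Conjugating (phase II) enzymes had a median of -1.16 in KO over 21 kept of 28 listed, with 11 lower, 0 higher and 8 beyond both untreated arrays. The sulfotransferase genes Sult1a1 (9.78 and 5.51 in KO, 8.06 and 5.66 in WT), Sult1d1 (9.45 and 6.59, 8.95 and 6.98) and Sult1c2 (6.38 and 4.56, 6.76 and 4.25) were lower by at least 2-fold in both genotypes. The glutathione transferase genes Gstm1 (-1.16), Gstm3 (-1.82) and Gstk1 (-1.63) were lower in KO, with Gstm1 at -1.01 in WT. Steroid enzymes showed 7 of 11 kept genes lower, 0 higher and 6 beyond both, with a median of -1.43. Hsd17b2, which inactivates sex steroids, read 8.51 and 6.88 in KO and 8.47 and 8.06 in WT. Hsd11b2, which protects the mineralocorticoid receptor from corticosterone, read 8.48 and 7.19 in KO and 9.23 and 7.60 in WT. Hsd17b13, of lipid droplets, read 4.95 and 1.44 in KO and 4.40 and 5.33 in WT, so that it was low on the KO DSS array alone.

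**Figure D5:**
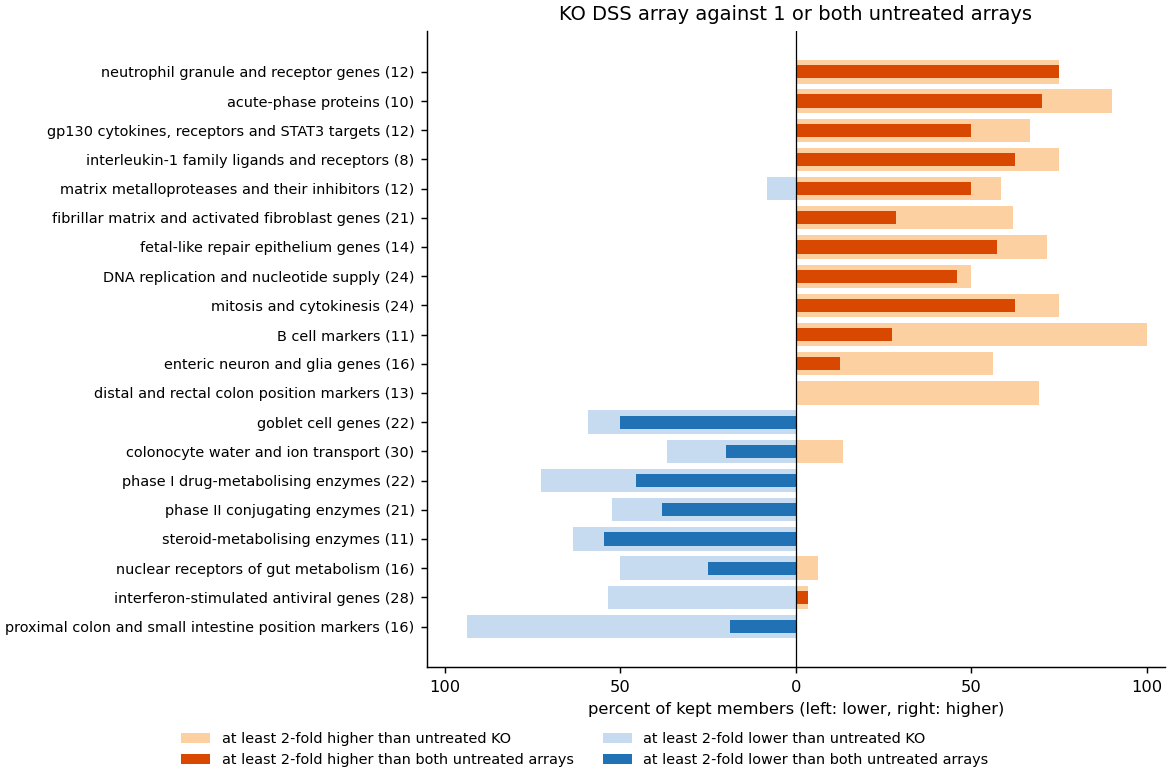
For 20 gene lists (kept members in parentheses), the percentage of members at least 2-fold higher (right) or lower (left) on the KO DSS array than on the untreated KO array (pale, wide bars) and than on both untreated arrays (dark, narrow bars). The bars are of equal length for neutrophil genes, and the dark bar is absent for distal colon markers on the right and for interferon-stimulated genes on the left.

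Of the nuclear receptors that control such enzymes, 8 of 16 kept genes were lower in KO and 1 higher. The median was -0.985 (-0.25 in WT), and 4 were beyond both untreated arrays. Against the untreated WT array the median was also -0.25. The untreated KO array lay above the untreated WT array by a median of 0.53. Vdr, the vitamin D receptor, read 7.89 and 6.20 in KO and 7.95 and 6.69 in WT. Hnf4g read 4.77 and 2.86 in KO and 4.26 and 3.81 in WT, and Nr5a2, which drives steroid synthesis in the gut, 7.38 and 5.41 in KO and 6.56 and 6.15 in WT. Pparg, the target of colonic butyrate and lipid signals, read 7.72 and 6.01 in KO and 6.18 and 6.73 in WT, so its KO DSS value was close to the untreated WT value. Ahr was the higher one, from 5.33 to 6.38, with 6.47 on the untreated WT array.

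Genes of energy metabolism lay lower in KO, mostly by less than 2-fold. Of 42 kept nuclear-encoded subunits of the respiratory chain, 36 were below 0 in KO, although only 2 (Cox8a at -1.15 and Sdhb at -1.0) were 2-fold lower and 0 higher. The median was -0.455, against -0.01 in WT and 0.06 over all genes in KO, and -0.225 against the untreated WT array. Fatty acid oxidation and ketogenesis had 7 of 25 kept genes lower and 1 higher, with a median of -0.77 (-0.25 against the untreated WT array). Acads read 8.98 and 7.01 in KO and 7.52 and 7.79 in WT, and Ehhadh, of peroxisomes, 6.23 and 4.42 in KO and 5.62 and 4.86 in WT. Angptl4, an inhibitor of lipoprotein lipase, was the higher one, at 3.08 and 5.89 in KO and 3.72 and 4.44 in WT.

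Interferon-stimulated antiviral genes were lower with DSS in KO, but from a high untreated KO array. Of 28 kept of 32 listed, 15 were at least 2-fold lower and 1 higher, with a median of -1.195, yet 0 of the 15 were beyond both untreated arrays, and the median against the untreated WT array was -0.16. The untreated KO array lay above the untreated WT array by a median of 0.975. Irf7, the master regulator of type I interferon, read 10.30 and 7.90 in KO and 8.50 and 8.55 in WT. Oas3 and Oas2, sensors of double-stranded RNA, read 8.57 and 6.52, and 8.94 and 7.24, in KO, with 7.04 and 7.75 on the untreated WT array. Ifi27l2a read 11.18 and 8.41 in KO and 9.02 and 8.46 in WT. Xaf1 differed by -1.91 on its brightest probe set, and another kept probe set went the opposite way. Ifi44l was bright on both KO arrays (6.86 and 6.93) and dim on both WT arrays (1.77 and 1.37), so it differed by genotype label and not with DSS in KO.

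Genes induced by interferon gamma did not share the lower values with DSS in KO as a list. Here too the untreated KO array lay above the untreated WT array, by a median of 0.595. Of 14 kept, 3 were at least 2-fold higher in KO and 0 lower, with a median of 0.43 (-0.27 in WT). Ido1, which degrades tryptophan, read 6.13 and 7.88 in KO and 5.24 and 6.28 in WT, and the guanylate-binding protein gene Gbp2b 6.85 and 8.39 in KO and 3.18 and 2.02 in WT. Gbp2 was higher by 1.83, from 6.45 to 8.28, but the untreated WT array read 8.41. MHC class I and immunoproteasome genes were all below 0 in KO (11 of 11, median -0.36) with none past 2-fold, and against the untreated WT array their median was 0.20. Of 10 kept MHC class II genes, H2-Aa, Cd74, H2-Eb1 and H2-Ab1, of classical presentation, differed by -0.68, -0.81, -0.83 and -0.86. H2-Ob and H2-Oa, the chains of the B cell regulator H2-O, were the 2 higher ones, at 2.49 and 6.26, and 3.85 and 5.90. The median of the class II list, -0.55, became 0.13 against the untreated WT array and 0.24 when probe sets matching several transcripts were dropped.

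B cell markers were higher with DSS in KO and lower in WT. All 11 kept of 13 listed were at least 2-fold higher in KO, with a median of 2.44, and 8 of the 11 were at least 2-fold lower in WT, with a median of -1.18. Ms4a1, or CD20, read 4.10 and 7.29 in KO and 6.66 and 4.72 in WT, and Cd79b, of the antigen receptor, 3.64 and 6.90 in KO and 5.91 and 4.35 in WT. Cr2, the complement receptor of follicular B cells, read 2.32 and 5.35 in KO and 4.17 and 2.84 in WT. The untreated arrays differed before treatment, KO below WT by a median of -1.33, and against the untreated WT array the median was 0.94, with 3 genes beyond both. The colon holds scattered lymphoid follicles, and how many each sample contained was not measured. Plasma cell genes, with 3 of 11 higher (27.3%, against 10.8% of all genes) and 0 lower, had a median of 0.52, or -0.39 against the untreated WT array. They included Ighm (7.52 to 9.28, with 9.20 on the untreated WT array), Mzb1 (5.95 to 7.37, with 7.58) and Prdm1 (4.06 to 5.52, with 4.78).

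Other leukocyte lists had medians of smaller size than the B cell list, although some of their genes differed by more. Among 19 kept T and NK cell markers, 2 were higher and 2 lower (10.5% each, against 10.8% and 6.68% of all genes), with a median of -0.49, or 0.08 against the untreated WT array. These were Nkg7 (5.17 to 3.38), Gzmb (6.40 to 5.0), Klrd1 (3.54 to 4.65) and Cd28 (2.44 to 3.59), and a count this near the share of all genes is not a result about the list. Macrophage markers had a median of 0.24, with 5 of 19 higher (26.3%, against 10.8% of all genes) and 2 lower (10.5%, against 6.68%). Chil3 and Chil1, chitinase-like proteins of activated myeloid cells, read 2.27 and 7.02, and 2.97 and 7.28, in KO, and were between 2.13 and 3.43 on the WT arrays. Gpnmb (1.78), Cd14 (1.36) and Msr1 (1.32) were higher, but Cd14 read 8.20 on the KO DSS array and 7.81 on the untreated WT array. The complement genes of resident macrophages, C1qa (8.07 to 6.94) and C1qc (6.88 to 5.63), were lower, with 7.30 and 6.29 on the untreated WT array. Of this list, 4 of the higher genes and 0 of the lower were beyond both untreated arrays. Mucosal mast cell protease genes were higher in both genotypes, with Mcpt1 at 2.62 and 5.92 in KO and 4.14 and 5.91 in WT, and Mcpt2 at 2.94 and 5.50 in KO and 4.53 and 5.89 in WT. With Cpa3, Cma1 and Hdc, 5 of 6 kept of 15 listed mast cell and eosinophil genes were higher (median 1.32), and Kit was lower (6.84 to 5.53).

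Enteric neuron and glia genes had a median of 1.105 in KO and 0.08 in WT, with 9 of 16 kept genes at least 2-fold higher, 0 lower and 2 beyond both untreated arrays. Vip, a peptide that relaxes gut muscle and stimulates secretion, read 6.30 and 8.71 in KO and 7.91 and 6.75 in WT. Uchl1, of nerve cell bodies, read 3.62 and 5.73 in KO and 4.76 and 4.85 in WT, and Snap25, of synapses, 3.17 and 4.95 in KO and 4.62 and 4.48 in WT. Smooth muscle genes, which would move with the share of muscle wall, had 2 of 16 higher (12.5%, Cald1 at 2.14 and Kcnmb1 at 1.33) and 1 lower (Pln at -1.25), near the shares of all genes, with a median of 0.335, or -0.44 against the untreated WT array. The part of the muscle wall in the differences of the nerve genes was not tested. Among 12 kept enteroendocrine genes, 4 were higher and 5 lower, with a median of -0.41, or 0.155 against the untreated WT array. Nts (neurotensin, 7.57 to 2.13), Sct (secretin, 7.49 to 4.24) and Chga (6.36 to 4.21) were lower, all from an untreated KO array above both WT arrays, and Tac1 (4.81 to 8.49, with 7.77 on the untreated WT array) was higher. Of 7 kept tuft cell markers, 1 was higher (14.3%, against 10.8% of all genes), 0 were lower, and the median was -0.58. The higher one, Dclk1, was so on its brightest probe set (1.58) and on 2 others (2.36 and 1.71), and below 0 on 3 (-0.08, -0.66 and -0.74).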

How the data were processed

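Total RNA of 4 colon samples was measured on Affymetrix mouse arrays, 1 per mouse, after Trizol extraction and biotin labelling, per the labels' protocols. The authors' deposited table gives log2 values for 45101 probe sets; summarisation and normalization are not given in the sources used here. Values run from 0.16 to 13.23 with array medians of 3.42 to 3.46. Base 2 was inferred: the highest value is 9608 in base 2 but 556821 in base e, past the 65535 that a 16-bit scanner can record. They were used as deposited. The number of arrays limits the precision.

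Probe sets were named from the platform annotation, with symbols updated by Entrez number through a RefSeq table of GRCm38.p6, also the source of the promoters. Of the probe sets, 34945 had 1 gene (34741 matched), 932 several, 9160 none, and 64 were controls. After the filter 21121 probe sets with 1 gene remained, of which 2188 were at least 2-fold higher and 1284 lower in KO with DSS. Of the 12189 genes, 5418 had several kept probe sets, and the one with the highest mean over the arrays stood for the gene.

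The rule for named genes took Adamts12, the 15 highest and 15 lowest KO differences, the 10 highest and 10 lowest against the brighter or dimmer untreated array, the 8 highest and 8 lowest among genes 2-fold apart the opposite way in WT, and up to 6 members of each of 59 lists past 2-fold, or all where 5 or fewer were. The rankings skipped gene models with Gm, Rik, LOC or clone names. Some list members that it took are counted but not printed. Other members are named where a sentence describes a list, chosen after their values were seen. The members and the lists, from textbook knowledge, were chosen with earlier results of these data known.

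No test was made. The code was tested on simulated data, where 100 of 100 higher and 100 of 100 lower genes simulated with a log2 change of 2 were recovered. Alternatives were quantile normalization, median centring, other filters on dim probe sets, the mean over probe sets, dropping probe sets matching several transcripts, other untreated references and a floor at 2. Calculations used Python 3.11.15 with numpy 2.4.6 and pandas 2.3.3, and plots matplotlib 3.10.9.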

Additional observations from a re-analysis of the deposited data

Results flagged for a closer look

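Some genes stood out because the DSS array was at least 2-fold on one side of the untreated array in KO and at least 2-fold on the other side in WT. Lists are given where the medians of the genotypes had opposite signs and each was at least 0.5 from 0, which is less than 2-fold. With 1 array a side the difference between the genotypes was not tested in any of them. Values are log2 differences, KO then WT.

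Genes of the distal colon and of the mucosal surface were higher in KO and lower in WT: Hoxb13 (5.92 and -1.63), Hoxd13 (3.84 and -4.60), Sval1 (5.82 and -1.97), Mptx1 (5.32 and -1.82), Reg4 (2.39 and -4.79), B3gnt7 (3.66 and -1.40), which extends sulfated glycans of mucus, Fxyd4 (2.59 and -3.25), Slc15a1 (2.88 and -2.23) and Bmp2 (2.09 and -1.58). The distal colon list had medians of 2.14 and -0.83.

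B cell genes did likewise, with list medians of 2.44 and -1.18: Fcmr (3.45 and -1.49), Cd79b (3.26 and -1.56), Ms4a1 (3.19 and -1.94), Cr2 (3.03 and -1.33), Bank1 (2.70 and -1.14), Cd79a (2.44 and -1.27), H2-Ob (3.77 and -2.39), H2-Oa (2.05 and -1.07) and the immunoglobulin segment Ighv14-2 (4.34 and -2.10). Plasma cell genes had medians of 0.52 and -0.93, with Mzb1 at 1.42 and -1.54. Others of this direction were Vip (2.41 and -1.16), Gbp2b (1.54 and -1.16), Bnip3 (1.45 and -1.06), Lyve1 (1.44 and -1.04) and Adamts15 (1.24 and -1.51).

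Lower in KO and higher in WT were absorptive and proximal genes: Sptssb (-6.69 and 5.16), Fabp2 (-6.11 and 1.35), Slc13a1 (-5.64 and 2.30), Ces1f (-4.55 and 2.27), Slc3a1 (-4.50 and 3.47), Mettl7b (-3.97 and 1.17), Prkg2 (-3.94 and 1.29), Isx (-3.83 and 3.40) and Slc7a9 (-2.17 and 1.79). The antibacterial lectin genes Reg3b (-3.20 and 5.26) and Reg3g (-2.70 and 7.09), the adipocyte genes Adipoq (-2.40 and 2.51) and Car3 (-1.75 and 1.70), and Tph1 (-1.15 and 1.20), of serotonin synthesis, did the same. The untreated KO array was the lowest of the 4 in median level for the distal and B cell lists and the highest for the proximal list, and the part of this in the differences was not tested.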

How the results depend on the processing

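Across the settings with the untreated KO array as the only reference, the count of higher genes lay between 943 (filter at the 75th percentile, 8039 genes) and 1389 (median centring) and that of lower genes between 622 and 968. The untreated reference mattered more: against the untreated WT array 748 genes were higher in place of 1312, and 615 lower in place of 814. Against the mean of the untreated arrays 895 were higher and 595 lower. Of the genes called against the untreated WT array, 537 higher and 295 lower were also called against the untreated KO array. Quantile normalization put the median of all genes at -0.04 in place of 0.06, and the higher share of calls at 53.5% in place of 61.7%. Against the untreated WT array, 49 of the 293 named genes and 12 of the 59 list medians took the opposite sign, and the cause was not tested. Of the 12, the distal colon median alone was past 2-fold, and it was then -1.55. The mean of the untreated arrays turned 6 list medians, dropping probe sets of several transcripts 5, no filter, the 75th percentile and the mean over probe sets 1 each, and the other settings 0. The distal, mucosal and transport genes were Reg4 -4.01, Sval1 -2.14, Mptx1 -1.86, Insl5 -1.85, Aqp8 -1.70, Hoxd13 -1.62, Slc15a1 -1.53, Fxyd4 -1.27, Cldn8 -1.13, Hoxb13 -1.07, B3gnt7 -0.91, Atp12a -0.89, Slc1a1 -0.47, Aqp4 -0.33 and Anxa3 -0.04. Other genes that then lay lower were Fos -0.96, Bmp2 -0.84, Adamts15 -0.77, Cma1 -0.21, Mzb1 -0.21, Egln3 -0.15, Gbp2 -0.13, Ahr -0.09, Cd28 -0.09, Hsp90b1 -0.08, Lyve1 -0.07, Bnip3 -0.05 and Atf3 -0.04. Genes that then lay higher were Reg3g 2.66, Isx 1.83, Reg3b 1.21, Akr1c19 1.14, Acaa1b 0.85 (0.62 or more at the background limit), Ces1f 0.80, Slc7a9 0.79, Ccl12 0.69, Prkg2 0.55, Tph1 0.51, Osr2 0.49 (0.26 or more), Car1 0.35, Mmp7 0.33, Gzmb 0.27, Alox15 0.26, Nts 0.21, Slc13a1 0.20, Ccl9 0.19, Reg3a 0.17, Xaf1 0.17 and Slc3a1 0.12. Against the mean of the untreated arrays Reg4 was at -0.81.

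No paired analysis was possible because each group has 1 array and the labels carry no replicate numbers, and for the same reason no array could be left out. Of 103 named genes with other kept probe sets, these were all past 2-fold the same way in 67, some in 13 and none in 23: Birc3, Ccl25, Clock, Cxcl14, Hlf, Hsp90b1, Hspa4, Hspe1, Lbp, Lyve1, Msr1, Nfkbiz, Pdgfra, Pim1, Pln, Prph, Rxra, Sgms2, Tfrc, Tnfaip3, Tpx2, Vcam1 and Xaf1. An opposite sign occurred for Dclk1, Hspa4, Prph, Tpx2 and Xaf1. Values at or under 1.39 carry no order, so a difference from one is a bound. The 4 arrays are of 4 mice, so differences among mice, samples and treatments cannot be told apart.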

Other observations

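Immediate-early genes had a median of 1.33 in KO and 0.17 in WT over 17 kept genes, with 9 at least 2-fold higher and 0 lower, but a median of 0.12 against the untreated WT array. Egr1 read 5.60 and 9.33 in KO and 7.59 and 8.74 in WT, Ier3 5.77 and 8.03 in KO and 5.66 and 7.16 in WT, and Fos 7.69 and 9.39 in KO and 10.35 and 9.90 in WT. Heat shock proteins and chaperonins had medians of 0.88 in KO and 0.64 in WT, with 6 of 17 higher in each. The mitochondrial chaperonin genes Hspd1 (9.60 and 10.74 in KO, 9.20 and 11 in WT) and Hspe1 (8.93 and 10.00 in KO, 8.93 and 10.33 in WT) were higher in both. The small heat shock gene Hspb8 read 5.06 and 6.85 in KO and 5.74 and 5.69 in WT. Endoplasmic reticulum stress genes had a median of 0.19, or -0.215 against the untreated WT array. Of 18, 3 were higher (Atf3, Hsp90b1 and Creld2), which is 16.7%, against 10.8% of all genes. Of 22 kept genes of glycolysis and hypoxia, 6 were higher and 3 lower (27.3% and 13.6%, against 10.8% and 6.68% of all genes). The median was 0.45, or 0.06 against the untreated WT array. Pfkfb3, a switch of glycolysis, read 3.44 and 5.80 in KO and 4.16 and 4.34 in WT, and Ankrd37 5.82 and 3.67 in KO and 5.36 and 3.88 in WT.

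Circadian genes lay lower with DSS in both genotypes, with medians of -0.30 in KO and -0.82 in WT. In KO 1 of 15 was higher (Clock, 1.30) and 4 lower (6.67% and 26.7%, against 10.8% and 6.68% of all genes). Of the lower ones, Per3 read 5.49 and 3.72 in KO and 5.22 and 3.71 in WT, Ciart was at -1.37, and Tef and Hlf at -1.04 each. Clock hour at sampling was not analysed here. Among 15 tight junction genes, 3 were lower in KO (20%, against 6.68% of all genes) and 1 higher (6.67%, against 10.8%), with a median of -0.29. Cldn15, which forms sodium pores, read 8.30 and 5.42 in KO and 7.05 and 7.14 in WT, Cldn2 8.74 and 7.25 in KO and 7.98 and 8.40 in WT, and Cldn8, of the distal colon, 5.28 and 7.25 in KO and 8.38 and 7.62 in WT. Of 19 kept ceramide and sphingolipid genes, 1 was higher (Sphk1, 3.52 to 5.17) and 2 lower (Sptssb and Sgms2), with a median of 0.20. These are 5.26% and 10.5%, against 10.8% and 6.68% of all genes.

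Adipocyte genes had a median of -0.42, with 2 of 11 lower (18.2%, against 6.68% of all genes). Pancreas, liver and skeletal muscle genes had a median of -0.33 over 5 kept genes (-2.06 against the untreated WT array), with Clps (6.17 to 4.33) and Ckm (5.44 to 4.15) lower. On the untreated WT array Clps read 8.83. Ribosomal protein genes had a median of 0.26 with none of 11 past 2-fold, and housekeeping genes also of 0.26. Of 12 housekeeping genes, 2 were higher (Pgk1 at 1.10 and Tfrc at 1.06), which is 16.7% against 10.8% of all genes, and 0 lower. Xist was bright on all 4 arrays, from 9.68 to 10.06.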
